A study of Homo sapiens with 6 samples.

Results

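The 10 genes described here stand along the Wnt pathway. They are the receptors FZD2 and FZD7, the co-receptor LRP6, the secreted inhibitor DKK1, the destruction complex genes APC, AXIN1 and AXIN2, the effector CTNNB1, the DNA-binding partner TCF7L2, and the transcription factor SOX4. They were chosen by name, with earlier results of these data known. Every probe set whose array annotation gives exactly 1 gene symbol, one of these 10, was taken. This gave 35 probe sets for the 10 genes, among 39063 probe sets and 15253 genes tested, and all 35 passed the filter on the variation within a group. The cells were PANC-1, an established human pancreatic ductal cancer line, and RNA came from 3 samples labelled anlotinib, treated at 5.535 μM for 48 h, and 3 labelled DMSO, the solvent, kept for the same 48 h. Anlotinib blocks a range of receptor tyrosine kinases, among them those of vascular endothelial growth factor. Both groups are 1 cell line at 1 dose and 1 time, and nothing in the labels tells separate cultures or days from repeats of 1, so the p-values measure the spread between these samples, which may be technical.

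In the canonical Wnt pathway, a Wnt protein binds a Frizzled receptor together with LRP5 or LRP6, and this halts a destruction complex built on AXIN1 or AXIN2 and APC. Without the signal, that complex marks β-catenin, the product of CTNNB1, for degradation. With it, β-catenin enters the nucleus and binds factors of the TCF/LEF family, such as the product of TCF7L2, to switch on target genes. Some of the targets, AXIN2 and DKK1 among them, restrain the pathway in turn. Much of this control acts on protein stability and location, which arrays of mRNA do not read. SOX4 is a factor of the SoxC group that shares with the TCF/LEF family the HMG box, the fold by which both bind DNA, and it is known in pancreatic and other cancers as a target of TGF-β signaling.

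The sequences just upstream of the transcription start are shown for 3 of the genes, since the HMG boxes of TCF/LEF and SOX factors read closely related letters and these genes stand for different results below. SOX4 had the most probe sets that fell, DKK1 is a feedback target, and TCF7L2 is the factor that binds such letters. RefSeq sequences on build GRCh38.p14 matched 6 of the 10 genes, with 9 start sites, and the 250 bases before each start were searched on both strands for 4 motifs of TCF/LEF type. These were CTTTGAA (in 3.80% of all 35116 promoter windows in the table), CTTTGAT (in 2.26%), CTTTGTA (in 2.35%) and CTTTGTT (in 4.50%), and 12.0% of windows held at least 1 of them. The last of these motifs reads AACAAAG on the other strand, which is also a common SOX motif, so the letters do not tell the families apart. Capitals mark each match, and all 3 windows lie on the plus strand.
SOX4 (chr6:21593501-21593750): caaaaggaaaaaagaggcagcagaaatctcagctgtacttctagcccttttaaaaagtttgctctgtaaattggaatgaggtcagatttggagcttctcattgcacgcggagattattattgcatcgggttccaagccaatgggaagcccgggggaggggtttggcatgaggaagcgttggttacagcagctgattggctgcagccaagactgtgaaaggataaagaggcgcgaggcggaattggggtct
DKK1 (chr10:52314031-52314280): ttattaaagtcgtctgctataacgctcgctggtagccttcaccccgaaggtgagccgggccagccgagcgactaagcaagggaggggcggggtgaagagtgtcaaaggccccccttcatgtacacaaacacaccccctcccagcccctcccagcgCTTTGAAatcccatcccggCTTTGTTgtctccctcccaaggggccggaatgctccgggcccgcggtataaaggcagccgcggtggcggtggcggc
TCF7L2, second listed start (chr10:113126383-113126632): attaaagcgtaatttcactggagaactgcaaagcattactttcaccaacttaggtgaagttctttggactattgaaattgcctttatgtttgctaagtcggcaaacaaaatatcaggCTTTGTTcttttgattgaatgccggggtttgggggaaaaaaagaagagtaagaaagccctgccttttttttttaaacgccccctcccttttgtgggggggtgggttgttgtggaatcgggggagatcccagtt
DKK1 held 2 matches, CTTTGAA at 95 to 89 bases and CTTTGTT at 76 to 70 bases before the start, and TCF7L2 held 1, CTTTGTT at 133 to 127 bases before its second listed start. The windows of SOX4, CTNNB1, AXIN1, both starts of APC and the other 2 starts of TCF7L2 held none. So 2 of the 9 windows held a match. A match describes the letters in the window and was not tested as a binding site.

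The RNA was hybridized to Affymetrix PrimeView arrays, and each value is a log2 signal, so that a difference of 1 is a 2-fold change. Signals ran from 3.72 to 15.16 with array medians between 7.71 and 7.77, the correlation between arrays of 1 group was at least 0.9978, and that between groups was at most 0.9783. The epithelial keratins KRT8, KRT18 and KRT19, markers of ductal cells, gave 12.89 to 14.06 with anlotinib and 13.47 to 14.61 with DMSO. KRT7 and EPCAM were dimmer, with means of 8.27 and 6.97 with anlotinib and 8.53 and 7.32 with DMSO. These keratins and EPCAM were named after their values were seen. Of 7 genes listed as markers of ductal carcinoma cells 6 were lower at the false discovery rate (FDR) used below. The other, VIM, also named after its values were seen, had a log2 fold change of −0.08 and did not meet the FDR. CDH1, which encodes E-cadherin, was the 1 that fell at its brightest probe set. It averaged 4.72 ± 0.03 with anlotinib and 6.72 ± 0.10 with DMSO (SD, n = 3 each). Of 26 measured markers of leukocytes, fibroblasts, endothelium, and acinar and endocrine cells, 1 rose and 0 fell, while 4 were higher and 8 lower at the FDR. Among all genes at the brightest probe set, 2.10% rose and 1.91% fell, while 25.4% were higher and 29.7% lower at the FDR. Of the fibroblast markers 4 of 5 were lower, at −0.30 to −0.16, and ESAM, an adhesion molecule of endothelium, was higher at 0.99 with −0.02 at its other probe set. The riser was CD68, a lysosomal glycoprotein used as a macrophage marker, with 9.68 ± 0.08 and 7.72 ± 0.06 in anlotinib and DMSO (SD, n = 3 each). The probe sets read here for CD68, KRT8 and KRT18 carry a suffix by which the array's design marks possible cross-hybridization. The 8 leukocyte signals summed to 50.78 to 51.33 log2 units with anlotinib and to 48.62 to 49.08 with DMSO, with a median log2 fold change of 0.01 over the 8. CD68 alone gave 1.96 of that difference, and 4 of the others were negative. The part of these markers in the results below was not tested. Each sample was 1 cultured cell line, and bulk RNA cannot tell fewer cells in a given state from less RNA per cell.

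Probe sets were called, up-regulated or down-regulated, and are said to have risen or fallen, at a fold change of at least 2 with an FDR under 0.05 over all tested probe sets. Values that met the FDR alone are given as higher or lower. SOX4 and FZD2 fell with anlotinib, and 0 of the 10 genes rose. Among the 35 probe sets, 4 were called down-regulated, where 1.71% of all tested probe sets were, and 0 were called up-regulated, where 2.38% of all were. Either direction together made up 4.09% of all. The 4 are not independent of each other, since 3 of them read SOX4 and 1 reads FZD2. The genes were chosen with earlier results of these data known, so the counts and shares here only describe them. By the FDR alone 16 of the 35 were lower and 6 higher, against 28.3% lower and 28.3% higher among all tested probe sets, which is 56.6% in either direction. These are not independent either. Of the lower ones 7 read SOX4 and 5 read TCF7L2, and of the higher ones 4 read CTNNB1. The arrays of the groups did not overlap at 24 of the 35, against 63.1% of all, so a separation of the groups by itself was about as common among other probe sets. The median log2 fold change was −0.17 over the 35 and −0.02 over all, and the median size without its sign was 0.22 and 0.21.

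**Figure D1:**
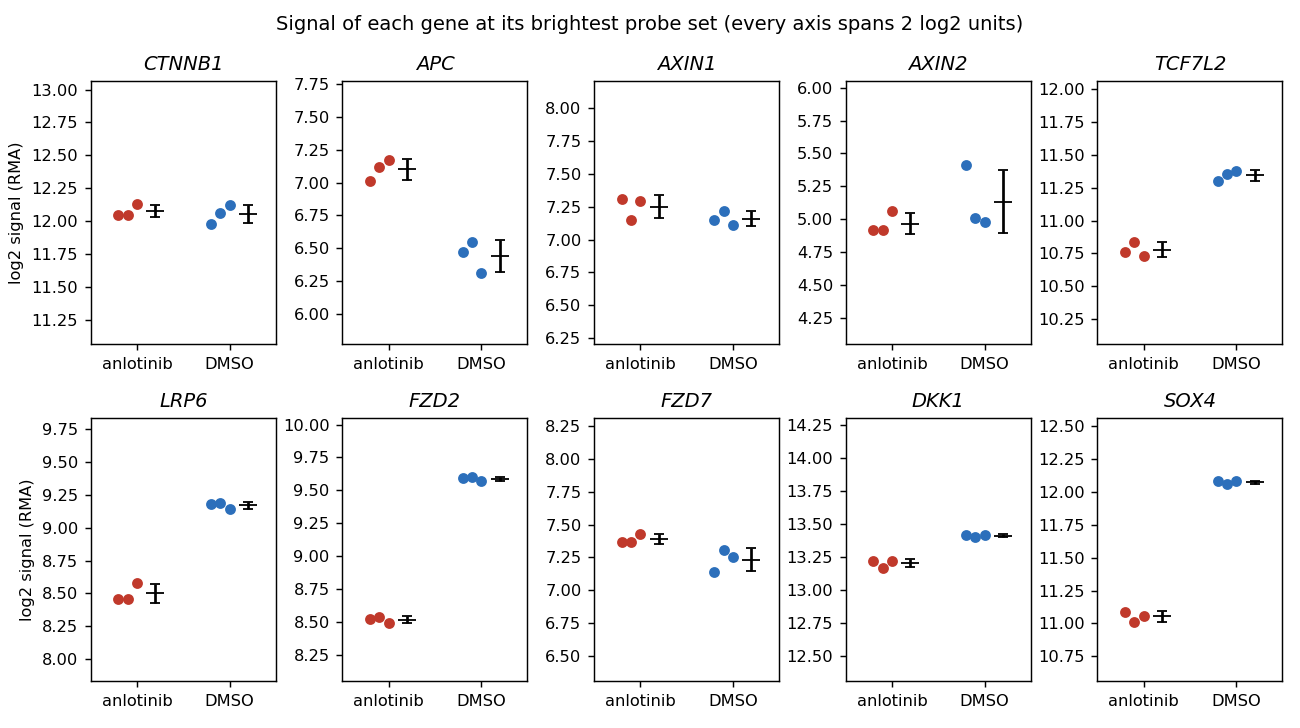
Log2 signal of each of the 10 genes on the 3 anlotinib arrays (red) and the 3 DMSO arrays (blue) at its brightest probe set; black marks give the mean and SD of each group and every vertical axis spans 2 log2 units. SOX4 and FZD2 lie about 1 unit lower with anlotinib, LRP6 and TCF7L2 lie lower and APC higher by smaller steps, and CTNNB1, AXIN1 and AXIN2 overlap between the groups.

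With each gene read at its brightest probe set, that of highest mean over the 6 arrays, 2 of the 10 genes fell and 0 rose, beside 1.91% of all genes that fell and 2.10% that rose. At the FDR alone 5 were lower and 2 higher, beside 29.7% and 25.4% of all genes. The lower genes ordered by size were FZD2, SOX4, LRP6, TCF7L2 and DKK1, and the higher ones were APC and FZD7. AXIN1, AXIN2 and CTNNB1 met neither criterion. The 10 genes thus ran from −1.07 at FZD2 to 0.66 at APC.

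FZD2, a Frizzled receptor that has been studied in both the canonical and the β-catenin-independent branch, was read by 1 probe set. It gave 8.52, 8.54 and 8.49 on the anlotinib arrays, against 9.59, 9.60 and 9.57 on the DMSO arrays. The groups were separated by a gap of 1.04, while arrays of 1 group lay within 0.05 of each other. The log2 fold change was −1.07 (SE 0.04, 95% interval −1.16 to −0.98, adjusted p = 1.88e-06 from limma), so that the signal with anlotinib was 47.5% of that with DMSO. The 2-fold limit, −1 on this scale, lies inside the interval, and FZD2 had no other probe set to compare.

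FZD7, a further Frizzled receptor of the same subfamily, was read by 3 probe sets, and they did not move together. The brightest, 11721752_at, gave 7.37, 7.37 and 7.43 with anlotinib, against 7.14, 7.31 and 7.25 with DMSO. Another of nearly the same mean signal, 11721751_s_at, gave 7.09, 7.01 and 7.24 with anlotinib, against 7.51, 7.44 and 7.48 with DMSO. Every anlotinib array was thus above the DMSO arrays at one and below them at the other. The log2 fold changes were 0.15 (SE 0.05, adjusted p = 0.0459 from limma) and −0.36 (SE 0.06, adjusted p = 0.00226 from limma), and −0.09 (adjusted p = 0.286 from limma) at the third, dimmer probe set. The first and second differed by 0.51 log2 units in their response (exact two-sided permutation test over the 6 arrays, p = 0.1). This was 1 of 25 such comparisons of a gene's brightest probe set with another, and 21 gave this p, the smallest that the exact test allows for 3 arrays against 3, so that none could pass 0.05 with or without adjustment. The value at 11721752_at met the FDR in 7 of 15 settings of the analysis, and no direction can be given for FZD7 from these probe sets.

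LRP6, the co-receptor that is phosphorylated when Wnt binds, was lower by less than 2-fold. Its brightest probe set, 11719257_s_at, gave 8.46, 8.46 and 8.58 with anlotinib, against 9.18, 9.19 and 9.14 with DMSO. The groups did not overlap, with a gap of 0.57, and the log2 fold change was −0.67 (SE 0.05, adjusted p = 2.51e-05 from limma), or 62.8% of the DMSO signal. The other 2 probe sets read 5.88 and 5.49 on average with anlotinib and 5.90 and 5.57 with DMSO, and their groups overlapped. Their log2 fold changes were −0.01 and −0.08 (adjusted p = 0.931 and 0.418 from limma). By mean signal they stood at percentiles 23.8 and 17.9 of all tested probe sets, against 66.3 for the brightest. The response of the brightest was set against theirs, with log2 differences of −0.66 and −0.60 (exact two-sided permutation test over the 6 arrays, p = 0.1 for each). The median over the 3 on each array gave −0.01 (SE 0.10), so that LRP6 was lower at the brightest probe set alone.

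DKK1, a secreted protein that binds LRP6 and blocks the receptor pair, was read by 1 probe set with high signal. It gave 13.22, 13.17 and 13.22 with anlotinib, against 13.42, 13.40 and 13.42 with DMSO. The groups did not overlap, yet the step was small. The log2 fold change was −0.21 (SE 0.04, 95% interval −0.30 to −0.12, adjusted p = 0.00243 from limma), or 86.3% of the DMSO signal. This probe set was brighter than 99.0% of those tested, and whether its signal was near saturation was not measured.

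**Figure D2:**
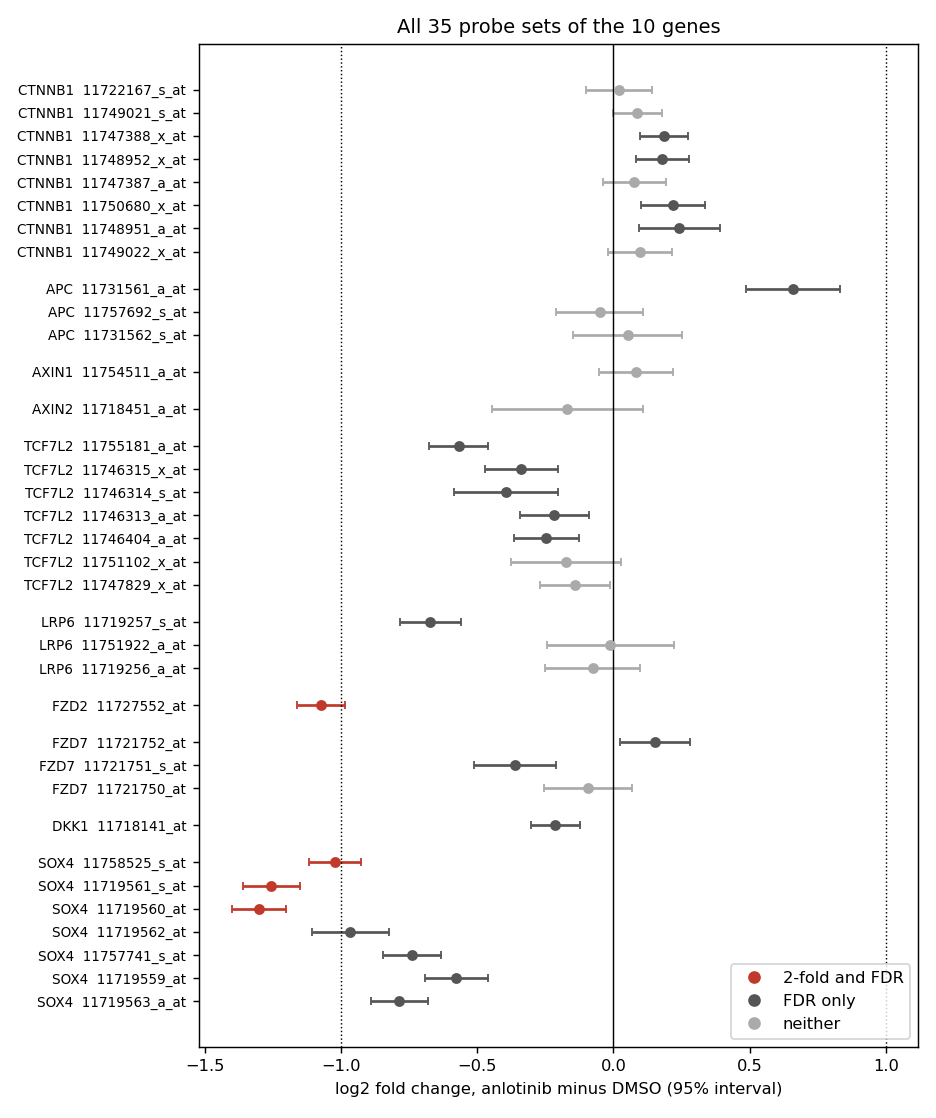
Log2 fold change, anlotinib minus DMSO, with its 95% interval from limma at all 35 probe sets, grouped by gene and ordered by mean signal within a gene; dotted lines mark the 2-fold limit. The 7 probe sets of SOX4 all lie below 0, from −1.30 to −0.58, and the 8 of CTNNB1 lie between 0.02 and 0.24, while those of FZD7, APC and LRP6 differ among themselves.

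Of the destruction complex, APC was higher at 1 of 3 probe sets, and AXIN1 and AXIN2 met neither criterion. APC encodes the scaffold whose loss activates the pathway in colorectal tumors. Its brightest probe set, 11731561_a_at, gave 7.01, 7.12 and 7.17 with anlotinib, against 6.47, 6.55 and 6.31 with DMSO, so that the groups were apart by 0.46. The log2 fold change was 0.66 (SE 0.07, 95% interval 0.49 to 0.83, adjusted p = 2.15e-04 from limma), which is 1.58-fold. The other 2 gave −0.05 and 0.05 (adjusted p = 0.559 and 0.626 from limma), with intervals of −0.21 to 0.11 and −0.15 to 0.25. The first differed from them in response by 0.71 and 0.61 log2 units (exact two-sided permutation test over the 6 arrays, p = 0.1 for each). The median over the 3 probe sets on each array gave −0.05 (SE 0.07), so that APC was higher only where the brightest was taken. RefSeq lists 2 start sites for APC, and which transcripts the probe sets read was not tested.

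AXIN1, the scaffold on which the complex assembles, gave 7.31, 7.15 and 7.29 with anlotinib, against 7.15, 7.22 and 7.11 with DMSO. The groups overlapped, and the log2 fold change was 0.08 with a 95% interval of −0.05 to 0.22 (adjusted p = 0.254 from limma). AXIN2, its relative and a direct target that is widely used as a readout of the canonical pathway, gave 4.92, 4.92 and 5.06 with anlotinib, against 5.41, 5.01 and 4.98 with DMSO. The groups overlapped here too, and 1 DMSO array stood above the other 5. The log2 fold change was −0.17 with an interval of −0.45 to 0.11 (adjusted p = 0.259 from limma), and it ranged from −0.25 to −0.03 when 1 array was left out, the −0.03 being without DMSO replicate 1. This probe set was in the lowest 9.67% by signal. The interval leaves out a 2-fold difference of the signal in either direction. Whether so low a signal follows the mRNA was not tested.

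CTNNB1, which encodes β-catenin, differed by at most 1.18-fold at each of its 8 probe sets. The brightest, 11722167_s_at, gave 12.05, 12.05 and 12.13 with anlotinib, against 11.98, 12.06 and 12.12 with DMSO, and the groups overlapped. Its log2 fold change was 0.02 with a 95% interval of −0.10 to 0.14 (adjusted p = 0.751 from limma). All 8 had a positive sign, 4 were higher at the FDR, and 6 had groups that did not overlap. The largest of these differences was 0.24 (SE 0.06, adjusted p = 0.0139 from limma) at 11748951_a_at, with 10.13, 10.07 and 10.25 in anlotinib arrays, against 9.99, 9.90 and 9.84 in DMSO arrays. Of the 4 that were higher, 3 carry the suffix by which the array's design marks possible cross-hybridization.

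TCF7L2, the TCF family member through which β-catenin acts in many epithelial cells, was lower at the FDR at 5 of its 7 probe sets and called at 0. The brightest, 11755181_a_at, gave 10.76, 10.84 and 10.73 with anlotinib, against 11.30, 11.35 and 11.38 with DMSO. The groups were 0.47 apart, and the log2 fold change was −0.57 (SE 0.05, 95% interval −0.68 to −0.46, adjusted p = 4.53e-05 from limma), or 67.5% of the DMSO signal. The other 6 were all negative, from −0.39 to −0.14. The 2 that missed the FDR, at −0.17 and −0.14 (adjusted p = 0.122 and 0.0617 from limma), had mean signals of 5.31 and 4.92 with anlotinib and 5.48 and 5.06 with DMSO. Both carry the suffix for possible cross-hybridization, as does 11746315_x_at among the lower ones. TCF7L2 is spliced into many forms, and the responses by form were not tested.

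SOX4 fell, and its 7 probe sets were all lower with groups that did not overlap at any of them. The brightest, 11758525_s_at, gave 11.09, 11.01 and 11.06 with anlotinib, against 12.08, 12.06 and 12.08 with DMSO. Its log2 fold change was −1.02 (SE 0.04, 95% interval −1.12 to −0.93, adjusted p = 2.70e-06 from limma), with the 2-fold limit inside the interval, and the anlotinib signal was 49.2% of that with DMSO. The same direction was thus seen on each array.

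Larger steps of SOX4 came from 2 further probe sets. At 11719560_at the signals were 10.03, 10.01 and 9.98 with anlotinib, against 11.33, 11.34 and 11.26 with DMSO, a log2 difference of −1.30 (SE 0.04, adjusted p = 1.49e-06 from limma). At 11719561_s_at they were 10.19, 10.19 and 10.29 with anlotinib, against 11.49, 11.47 and 11.48 with DMSO, a log2 difference of −1.26 (SE 0.04, adjusted p = 1.86e-06 from limma). The anlotinib signal was 40.6% and 41.9% of that with DMSO. The other 4 probe sets stayed within the 2-fold limit, at −0.97, −0.79, −0.74 and −0.58, each past the FDR. The one at −0.97 was called as well without anlotinib replicate 3. The response of the brightest probe set differed by 0.28 from that of 11719560_at and by −0.45 from that of 11719559_at (exact two-sided permutation test over the 6 arrays, p = 0.1 for each). The median over the 7 probe sets on each array gave −0.97 (SE 0.06), short of the 2-fold limit.

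Other genes of the pathway and of the SOX family were taken from 10 lists, of whose 141 genes 118 had a tested probe set. At the brightest probe set 4 fell and 0 rose, beside 1.91% of all genes that fell and 2.10% that rose. At the FDR 45 were lower and 22 higher, beside 29.7% and 25.4% of all genes. The median log2 fold change was −0.08, beside −0.04 over all genes. The counts of single lists below stand beside the same shares. Each of the 4 that fell came from a different list. They were SOX21 of the SOX family, PRICKLE1 of planar polarity, NKD2 of the target genes and PTK7 of the receptors.

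**Figure D3:**
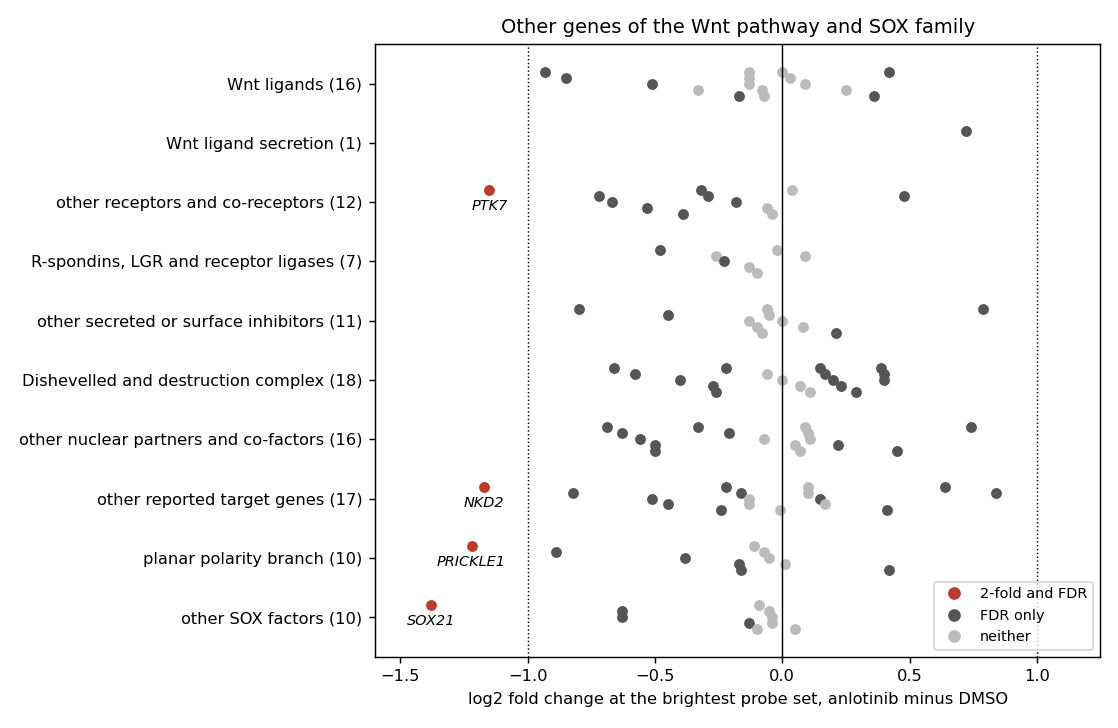
Log2 fold change, anlotinib minus DMSO, of 118 other genes at the brightest probe set, 1 row of points for each list with the number of measured genes in brackets; points are spread vertically within a row so that they can be seen, and dotted lines mark the 2-fold limit. The 4 red points on the left are PTK7, NKD2, PRICKLE1 and SOX21, and no point lies beyond the limit on the right.

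Among the other receptors 1 of 12 fell, 8 were lower and 1 higher at the FDR, with a median of −0.30. PTK7, a pseudokinase receptor that acts with Frizzled in planar polarity, gave 7.89, 7.70 and 7.89 with anlotinib, against 9.07, 9.01 and 8.85 with DMSO. Its log2 fold change was −1.15 (SE 0.08, adjusted p = 2.23e-05 from limma), and 3 of its 4 other probe sets were called down-regulated too, while the remaining one gave 0.13. LRP5, the other co-receptor of its kind, was lower by a step like that of LRP6 and is named here after its values were seen. It gave 7.46, 7.55 and 7.52 with anlotinib, against 8.21, 8.25 and 8.23 with DMSO, a log2 difference of −0.72 (SE 0.04). The Frizzled genes FZD5, FZD6 and FZD8 were also named after their values were seen. FZD5 and FZD6 had −0.67 and −0.53 (−0.65 to 0.19 at the other 4 probe sets of FZD5), and FZD8 had 0.48, the 1 receptor that was higher. A dimmer probe set of FZD4 was called down-regulated (−1.03), where its brightest gave −0.06.

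Of 16 Wnt ligands 0 were called, 4 were lower and 2 higher at the FDR. WNT5A, a ligand of the β-catenin-independent branch, gave 5.54, 5.27 and 5.33 with anlotinib, against 6.30, 6.28 and 6.34 with DMSO, a log2 difference of −0.93 (SE 0.07, adjusted p = 3.95e-05 from limma). The other 3 probe sets of WNT5A gave −0.45 to −0.12. WNT6, another ligand, had −0.85 (SE 0.13). WNT5A with anlotinib averaged 5.38, low in the table. Of the 2 genes for secretion 1 was measured. WLS, which carries Wnt proteins to the cell surface, was higher, with 10.10, 10.13 and 10.15 in anlotinib arrays, against 9.46, 9.41 and 9.35 in DMSO arrays, a log2 difference of 0.72 (SE 0.04), and its other 3 probe sets gave 0.62 to 0.72.

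R-spondins, their receptors and the ligases that remove Frizzled from the surface had 0 of 7 called. LGR4, a receptor of R-spondins, was at −0.48 (−0.09 at its other probe set). LGR6 was at −0.23, with means of 4.46 with anlotinib and 4.69 with DMSO, near the bottom of the table. Of 11 other secreted or surface inhibitors 0 were called and 2 were lower and 2 higher at the FDR. KREMEN2, a membrane receptor of the DKK proteins, was lower at −0.80 (SE 0.06), with −0.52 at its other probe set, and SHISA2, whose frog relative holds back Frizzled maturation, was higher at 0.79 (SE 0.11), though its other probe set gave 0.16. Inhibitors of the pathway thus did not share a direction.

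Of 18 further genes of Dishevelled and the destruction complex 0 were called, 6 were lower and 8 higher, and the median was 0.09. At the brightest probe set the widest steps were APC2, a relative of APC, at −0.66 (SE 0.06), and TNKS, a tankyrase that marks axin for degradation, at −0.58 (SE 0.06), for which 3 other probe sets gave −0.16 to 0.10. Dimmer probe sets reached further in GSK3B, the kinase of the complex (0.82, with −0.27 at its brightest), and in CSNK1A1, the casein kinase that primes β-catenin (0.67, with 0.20 at its brightest), both named after their values were seen. The 9 dimmer probe sets of CSNK1A1 ran from −0.00 to 0.67. Of 16 nuclear partners 0 were called at the brightest probe set, with CBY1, which binds β-catenin and blocks it, at −0.69 (SE 0.05) and TLE4, a co-repressor of TCF factors, at 0.74 (SE 0.06). The other 2 probe sets of TLE4 gave −0.10 and 0.51. At dimmer probe sets TCF7L1, a TCF factor that mainly represses, had −1.65 (SE 0.07, adjusted p = 3.22e-06 from limma), and CTNNBIP1, an inhibitor of β-catenin, had −1.03, where their brightest gave −0.56 and −0.21. TLE3, a further co-repressor, had 1.23 at a dimmer probe set and 0.10 at its brightest. LEF1, named after its values were seen, met neither criterion, at 4.84 ± 0.18 with anlotinib and 4.75 ± 0.17 with DMSO (SD, n = 3 each), near the bottom of the table.

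Of 17 genes reported as targets in other cells 1 fell, 7 were lower and 4 higher at the FDR. NKD2, a Dishevelled-binding inhibitor, gave 5.42, 5.41 and 5.58 with anlotinib, against 6.81, 6.58 and 6.53 with DMSO, a log2 difference of −1.17 (SE 0.08, adjusted p = 2.71e-05 from limma). NKD2 had no other probe set, and its mean of 5.47 with anlotinib was low in the table. Its relative NKD1 gave −0.13 and SP5, another feedback target, 0.10, and neither met the FDR. MYC, the growth regulator, was higher at 0.64 (SE 0.04). CCND1, which encodes cyclin D1, was higher at 0.41 (SE 0.04), with 0.47 to 0.67 at its other 3 probe sets. Of those lower, BIRC5 had −0.82 (−0.91 to 0.13 at its other probe sets) and L1CAM −0.51 (−0.12 at its other probe set). Targets past the FDR thus did not share a direction, and AXIN2 met neither criterion. NKD1, SP5, MYC, CCND1, BIRC5 and L1CAM were named after their values were seen. FOSL1, an AP-1 subunit, had 0.84 (SE 0.05) at its brightest probe set and was called up-regulated at 3 dimmer ones, with 1.14 to 1.20. FOSL1, like FZD4, TCF7L1, CTNNBIP1 and TLE3, was called at a dimmer probe set alone, and these 5 genes were named after their values were seen.

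In the planar polarity branch 1 of 10 genes fell, and 5 were lower and 1 higher at the FDR. PRICKLE1, a cytoplasmic component of that branch, gave 8.79, 8.72 and 8.87 with anlotinib, against 10.03, 10.03 and 9.96 with DMSO, a log2 difference of −1.22 (SE 0.05, adjusted p = 3.45e-06 from limma). Its other 2 probe sets were called as well, at −1.26 and −1.09. Of 10 other SOX genes 1 fell, 4 were lower and 0 higher at the FDR. SOX21, a SoxB factor, gave 5.15, 5.20 and 5.19 with anlotinib, against 6.58, 6.62 and 6.48 with DMSO, a log2 difference of −1.38 (SE 0.05, adjusted p = 2.01e-06 from limma). SOX21 had no other probe set, and its mean of 5.18 with anlotinib was low in the table. SOX12, a further SoxC gene, was lower at −0.63 (SE 0.04), with −0.63 to 0.40 at its other 3 probe sets, and SOX9, a factor of ductal cells, gave 11.76 ± 0.03 with anlotinib and 11.80 ± 0.03 with DMSO (SD, n = 3 each), with 0.12 and 0.25 at its other 2 probe sets. Both were named after their values were seen.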

How the data were processed

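PANC-1 RNA from 3 samples with anlotinib and 3 with DMSO was read on Affymetrix PrimeView arrays, grouped by the sample titles. The authors adjusted the background, normalized and summarised the arrays with RMA, and the deposited table holds absolute log2 signals of 39219 probe sets. Its filter on the lowest 20% of signals is the authors' own and was not repeated. The scanner files were not used here. Here 73 control probe sets and 83 with a coefficient of variation over 25% within a group (linear scale) were left out, and lmFit and eBayes of limma 3.58.1 (R 4.3.3) were run on the 39063 that remained, with p-values adjusted by Benjamini and Hochberg over all of them. Genes come from the array's annotation, which gives 1 symbol for 35858 of the tested probe sets. Sequences are RefSeq's. The number of arrays sets the precision. The fit was tested on simulated data. The 10 genes and the other lists were chosen with earlier results of these data known. Named genes are all members, called list genes, or else up to 2 per list with the widest difference past the FDR, and any other is marked as chosen with its values in view. Alternatives tried were no CV filter, the lowest 40% of signals left out, a second quantile normalization, centring, a 1.5-fold limit, eBayes with trend and robust settings, a replicate block, removal of cross-hybridizing probe sets, the per-array median over a gene's probe sets, and each array left out in turn.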

Additional observations from a re-analysis of the deposited data

How the results depend on the processing

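The 4 called member probe sets, in 2 genes, stayed called without the CV filter, without the lowest 40% of signals (which left 25 of the 35 member probe sets), after a second quantile normalization or centring, with trend and robust settings and without cross-hybridizing probe sets (which left 28). In these settings each remaining member probe set kept its sign. With a limit of 1.5-fold 9 member probe sets and 4 member genes were called, at the brightest or at any probe set, and 6141 of all probe sets, against 1596 at 2-fold. APC, LRP6 and 3 more probe sets of SOX4 were added. With the per-array median over probe sets 1 member gene was called, FZD2, since SOX4 then had −0.97, and APC (−0.05), LRP6 (−0.01) and FZD7 (−0.12) no longer met the FDR, while CTNNB1 (0.13) did. Without 1 array, 4 to 5 member probe sets, 2 member genes (at the brightest or at any probe set) and 1589 to 1622 of all probe sets were called. Signs turned only at values near 0 when 1 array was left out, over −0.02 to 0.05 at the brightest probe set of CTNNB1, −0.09 to 0.02 and −0.05 to 0.12 at the 2 dimmer ones of APC and −0.09 to 0.10 at 11751922_a_at of LRP6. The value of 11721752_at of FZD7 met the FDR in 7 of 15 settings, the reported one included. Samples with the same number did not pair, with correlations of their deviations of 0.167, 0.00626 and −0.145, and with the replicate block 4 member probe sets, 2 member genes and 1596 probe sets in all were called, as without it. The depth of an array is not counted. At signals under 7 on average, 2 of 10 member probe sets met the FDR, against 20 of 25 at brighter ones. Among all tested probe sets of any signal 56.6% did, and their share on each side of 7 was not counted. All probe sets of SOX4 and CTNNB1 were among the brighter ones, so the sides hold different genes. The part of signal in this was not tested.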
